A study of Caenorhabditis elegans with 21 samples.

Results

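The regions described here are the outer 100 kb at both ends of chromosomes II, III, IV, V and X of Caenorhabditis elegans. Reads had been counted in consecutive windows of 500 bp on build ce10. A window belonged to a left tip if it ended at or before base 100000, and to a right tip if it started within 100 kb of the last counted base. This rule used position only and gave 200 windows at each of 10 tips, 2000 of the 200547 windows counted. The right tips began at base 15179501 of II, 13684001 of III, 17394001 of IV, 20824501 of V and 17619001 of X, and ran to the last counted bases 15279345, 13783700, 17493793, 20924149 and 17718866. A low-count filter over the whole table kept 1014 tip windows for testing, from 60 at X right to 149 at II left, and 986 carried too few reads to be tested. Chromosome I is not analysed here except for a check of the labels.

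Chromosome tips of C. elegans end in short telomeric repeats, and the regions next to them belong to the chromosome arms. The arms are known for many repeats, for heterochromatin marked by methylation of histone H3 on lysine 9 (H3K9) and for contact with the nuclear periphery, while broadly expressed genes are denser in the central parts of the autosomes. MET-2 and SET-25 are H3K9 methyltransferases, of which SET-25 can add the last methyl group. LIN-61 is a protein with MBT domains that is known to bind methylated H3K9, and NRDE-3 is an Argonaute that carries small RNAs into the nucleus to silence matching transcripts.

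The samples were early embryos before the bean stage, of about 1 to 300 cells, grown at 20 °C, with 3 libraries of ribosomal-RNA-depleted total RNA per genotype. The groups compared were the wild type N2 (Bristol), the lin-61(tm2649) I mutant, the nrde-3(tm1116) X mutant, and 3 double mutants. These were lin-61 set-25, nrde-3 set-25 and nrde-3 met-2, which combine the alleles above with set-25(n5021) III or met-2(n4256) III. The series title asks whether LIN-61 and NRDE-3 act in parallel to bring in H3K9 trimethylation. N2 and lin-61 carried the title prefix 875 and all other genotypes the prefix 1121, so a comparison of nrde-3 with N2 or of lin-61 set-25 with lin-61 cannot be told apart from that prefix. The labels number 3 libraries per genotype and speak of a pair of independent biological replicates, and p-values thus measure the library-to-library spread, part of which may be technical.

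Libraries held 54839178 to 67553226 reads in prefix 875 and 22275571 to 28834312 reads in prefix 1121. The tips took 0.425 to 0.477% of the reads in the 6 libraries of prefix 875 and 0.4995 to 0.608% in those of prefix 1121. The deposited columns name no mutated gene, so labels were checked at stretches of windows picked in earlier work on these counts. At a 2 kb stretch of chromosome I the level was 123 ± 4.55 CPM (reads scaled to library size; SD, n = 3) in N2, 12.7 ± 0.0843 in lin-61 and 15.7 ± 1.97 in lin-61 set-25, but 132 ± 10.6 in those labelled lin-61 met-2. At a 5 kb stretch of X those same libraries stood at 63.6 CPM, close to nrde-3 at 73.2 and far from lin-61 at 455. The libraries labelled lin-61 met-2 therefore went against their label. Against N2, 37.4% of all bins of about 100 kb were called in them, and 3 of the 10 tips. They entered the fits only as a source for the shared spread, and no comparison below uses them. A 1 kb stretch of III had 1 read in the nrde-3 met-2 libraries and 0 reads in both set-25 double mutants, so it does not separate the labels met-2 and set-25.

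In N2 the tips differed widely in RNA level. Summed over a tip, the level was 1349 ± 84.3 CPM at III right, 1100 ± 28.3 at II left, 515 ± 23.6 at IV right, 493 ± 15.1 at V right, 473 ± 29.2 at III left, 372 ± 11.9 at II right, 303 ± 16.8 at X left, 213 ± 13.1 at V left, 176 ± 7.98 at IV left and 88.3 ± 12.96 at X right (SD, n = 3). The ratio of III right to X right was 15.43, as a mean over the 3 libraries. Among all 1005 bins of about 100 kb in the genome, ranked from the highest level down, III right stood at place 199, II left at 268 and X right at 943. Being at a chromosome end therefore did not go with 1 common level.

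The order of the tips was much the same in all 6 genotypes. X right was the lowest tip in all 18 libraries. II left lay above IV right, III left above II right, and II right above X left in 18 of 18 libraries. III right and II left, the highest pair, were in the order of N2 in 9 of 18 libraries: the N2 values of III right began at 1285 CPM and those of II left ended at 1131 CPM, but II left was the higher in the means of all 4 mutant genotypes of prefix 1121. IV right was above V right in 7 of 18 libraries, and within N2 their values overlapped, with 497 CPM as the lowest at IV right and 503 CPM as the highest at V right. V right and III left also overlapped in N2, although 17 of 18 libraries kept their order. V left was above IV left in 12 of 18 libraries.

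**Figure D1:**
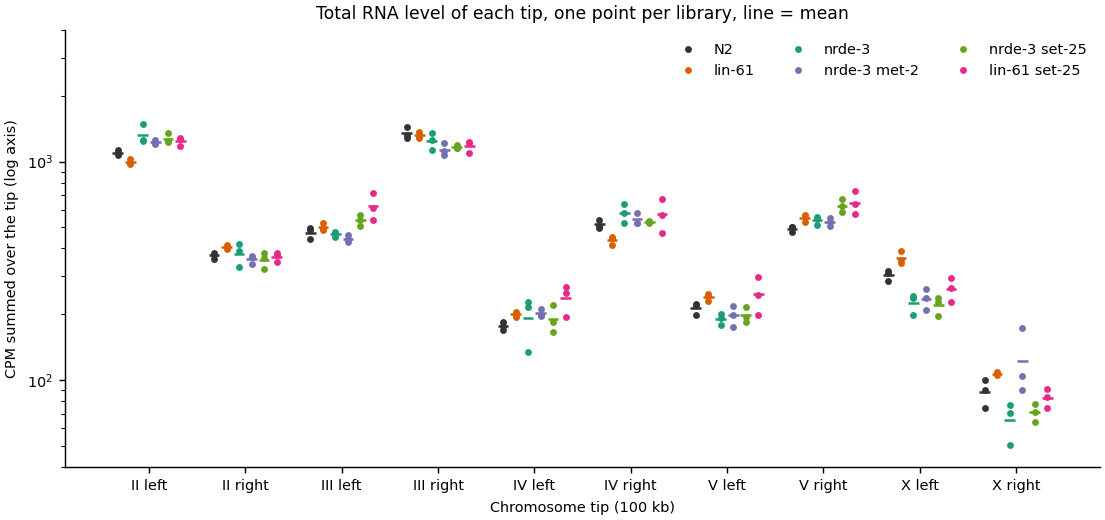
Each point is the total level of 1 tip in 1 library, in CPM on a log axis, with a line at the mean of the 3 libraries of a genotype. III right and II left lie at the top at 980 CPM or above and X right at the bottom in every genotype, where nrde-3 met-2 library c stands out at 173 CPM.

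A few windows made up much of the RNA of the quieter tips. At X right the window from base 17714501, 3.866 kb from the end, held 44.3% of the N2 reads of the tip, and only 8 windows reached 1 CPM. At V left the window from base 7001 held 33.2%. At X left the window from base 59001 held 21.5%. At III left the window from base 69501 held 18.5%, and at IV right the window from base 17460001 held 18%. At the other end of the scale, II left had 81 windows at 1 CPM or more, and its highest window, from base 42501, held 5.52%. III right had 72 such windows, and its highest, from base 13770001, held 10.2%. Without the highest window of each tip the ratio of III right to X right rose to 24.89.

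The 10 highest windows, 1 for each tip, had these levels in the 3 N2 libraries. The window from 13770001 at III right had 165, 133 and 191 CPM. The window from 17460001 at IV right had 106, 105 and 116 CPM, and that from 69501 at III left had 85.3, 115 and 109 CPM. By N2 mean these 3 were the highest of the 10, but the N2 libraries at III left overlapped those at IV right and at V left. The window from 7001 at V left had 84.6, 67.97 and 99.0 CPM, the window from 59001 at X left 84.5, 70.3 and 74.8 CPM, and the window from 20847001 at V right 77.8, 60.996 and 75.0 CPM. The window from 42501 at II left had 73.9, 67.1 and 73.0 CPM. The window from 17714501 at X right had 44.5, 37.5 and 56.5 CPM, the window from 15242501 at II right 26.7, 31.1 and 30.2 CPM, and the window from 6001 at IV left 15.1, 10.3 and 14.2 CPM.

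The next 100 kb inward showed which tips were low for their neighbourhood. In the 3 N2 libraries the inner neighbour held 7.17 to 8.21 times the RNA of the tip at V left, 3.96 to 4.50 times at IV left and 2.65 to 3.88 times at X right. At V right the ratio was 1.05 to 1.07. II left went the other way, with a neighbour at 0.311 to 0.345 times the level of the tip, and II right had a ratio of 0.542 to 0.550.

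Inside each tip the level moved by orders of magnitude between steps of 10 kb, without a common gradient toward the end. At III left the outermost 10 kb held 0.147 CPM in N2 while the step from 80 to 90 kb held 228 CPM. IV right and V right were also nearly silent at the end, with 0.311 and 0.464 CPM in the outermost 10 kb. IV left, V left and X right had the reverse profile: the outermost 10 kb held 84.8, 153 and 78.3 CPM and was the highest step of its tip. II left peaked at 540 CPM in the step from 40 to 50 kb, X left at 124 CPM from 50 to 60 kb, IV right at 527 CPM from 30 to 40 kb and III right at 838 CPM from 10 to 20 kb. The mutants left the profile of N2 at low and at high steps. The step from 60 to 70 kb of III right held 163 CPM in N2 and 214 in lin-61, but 74.0 in nrde-3 and 70.5 in lin-61 set-25. The peak step of X left held 124 CPM in N2 and 154 in lin-61, but 51.2 in nrde-3 and 62.6 in lin-61 set-25.

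**Figure D2:**
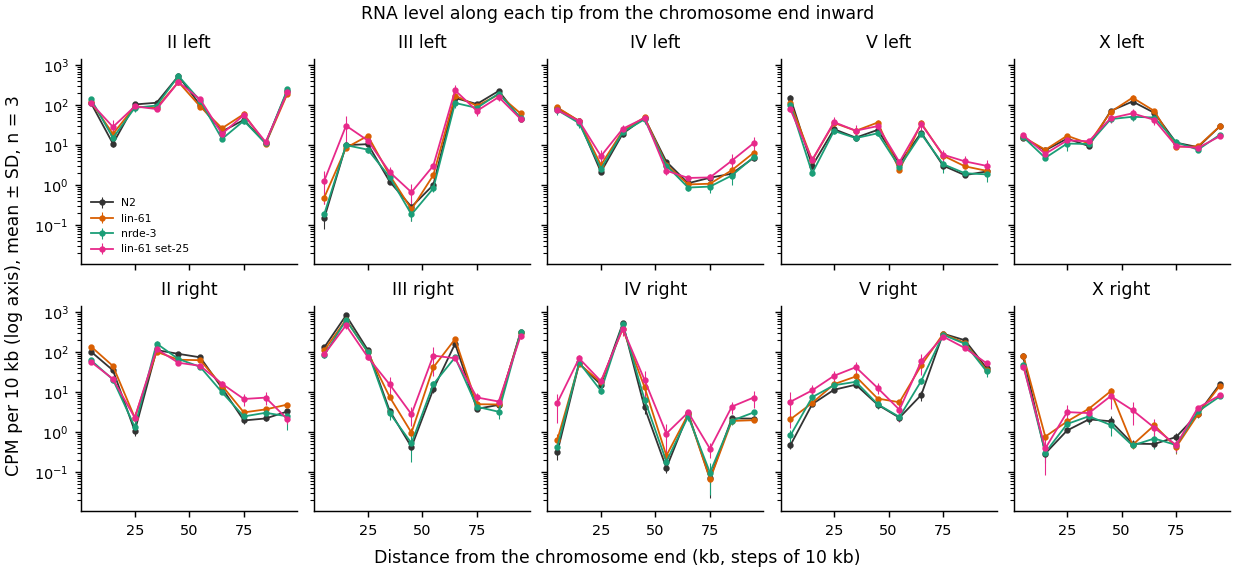
The level in steps of 10 kb is drawn on a log axis against distance from the chromosome end for N2, lin-61, nrde-3 and lin-61 set-25, as mean and SD of 3 libraries. The lines part in troughs, as at III left within 20 kb of the end, where lin-61 set-25 is the highest, and at some peaks, as at X left, where nrde-3 and lin-61 set-25 lie below N2 and lin-61.

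The outermost 3 kb, the 6 windows next to the end, split the tips again. In N2 they held 40.7 ± 4.68 CPM at IV left, 27.1 ± 7.90 at X right, 24.5 ± 2.04 at II left, 7.63 ± 0.880 at II right and 5.71 ± 0.111 at III right. X left was at 0.975 ± 0.145 CPM. The other 4 tips were close to nothing, with 12 reads over the 3 N2 libraries at IV right, 12 at V right, 7 at III left and 6 at V left. At IV right the same 3 kb gave 4 reads in nrde-3 and 404 reads in nrde-3 met-2, a level of 4.804 ± 0.383 CPM, against 16 reads in lin-61 set-25. At III left the level was 0.0480 CPM in N2, 0.147 in nrde-3 and 0.300 in lin-61, from 7, 11 and 47 reads. It was 0.642 CPM in nrde-3 set-25, 0.740 in nrde-3 met-2 and 0.794 in lin-61 set-25, from 51, 63 and 73 reads. These sums have no test of their own and are given as values. Of the single windows in this part of IV right, 3 from 17492001 to 17493500 were called higher in nrde-3 met-2 over nrde-3. Among all tested windows 6.67% were. These windows may have passed the low-count filter only through nrde-3 met-2. In nrde-3 met-2, windows nearly empty in N2 and lin-61 held 0.0985 to 0.297 CPM each, and the part of this in the outermost 3 kb was not tested.

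By order along the chromosome in the RefSeq annotation of assembly WBcel235, the outermost protein-coding genes are 2L52.1 at II left, rga-9 at II right, fbxa-6 at III left, pot-3 at III right, frm-5.2 at IV left, nas-6 at IV right, idpp-2 at V left, pbo-5 at V right, Y73B3A.1 at X left and cTel55X.1 at X right. pot-3 belongs to the family of telomere-binding proteins named for protection of telomeres, and pbo-5 encodes a subunit of a proton-gated channel. Windows were not assigned to these genes, since the assembly at hand is not the build of the counts.

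Windows were tested with edgeR's quasi-likelihood test over the whole table and called where the p adjusted by Benjamini-Hochberg was below 0.05. In lin-61 against N2, 110 of the 1014 tested tip windows were called higher, 10.8%, where 10.5% of all tested windows were, and 8 were called lower, 0.789%, against 2.05%. In nrde-3 against N2, 27 tip windows were higher, 2.66% against 3.94%, and 64 lower, 6.31% against 8.25%. Where met-2 was lost beside nrde-3, 74 rose over the nrde-3 single mutant, 7.30% against 6.67%, and 2 fell, 0.197% against 0.833%. Where set-25 was lost beside nrde-3, 30 rose, 2.96% against 2.46%, and 1 fell, 0.0986% against 0.232%. In lin-61 set-25 against lin-61, 138 were higher, 13.6% against 13.4%, and 120 lower, 11.8% against 13.3%. In nrde-3 set-25 against lin-61 set-25, 21 were lower, 2.07% against 1.67%. None was higher there at the adjusted threshold, against 0.612% of all windows, where 45 tip windows had an unadjusted p below 0.05 in that direction and DESeq2 called 3. For windows called higher the share over all tips was close to the background in 4 comparisons, and it was lower for nrde-3 over N2 and for nrde-3 set-25 over lin-61 set-25. For windows called lower it was below the background in each comparison but the last. None of these gaps was tested.

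Part of the calls rested on very low counts. The low-count filter can be passed through the 3 libraries of 1 genotype, so a low level in the other group of a list of higher windows is in part set by it. A stricter count kept called windows whose average log2 CPM was 0 or more and whose 2 groups did not overlap. By it lin-61 against N2 had 59 higher tip windows, where 5.72% of all tested windows met this, and 7 lower, where 1.75% did. In nrde-3 against N2 there were 22 higher (2.59% of all windows) and 55 lower (7.32%). Between nrde-3 met-2 and nrde-3, 4 were higher (0.771%) and 2 lower (0.743%), so that most of the 74 rises lay below this level or overlapped. Between nrde-3 set-25 and nrde-3, 21 were higher (1.45%) and 1 lower (0.199%). Between lin-61 set-25 and lin-61, 47 were higher (5.5%) and 100 lower (11.6%). Between the set-25 double mutants, 7 were lower in nrde-3 set-25 (0.744%) and none higher (0.554%).

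Over all tested tip windows the median log2 fold change was 0.16 in lin-61 against N2, where the median of all tested windows was -0.04. It was -0.02 against 0.05 for nrde-3 over N2, 0.14 against 0.04 for nrde-3 met-2 over nrde-3, 0.11 against -0.01 for nrde-3 set-25 over nrde-3, 0.13 against 0.10 for lin-61 set-25 over lin-61, and -0.21 against -0.03 for nrde-3 set-25 over lin-61 set-25. In bulk RNA, fewer cells of a type and less RNA per cell cannot be told apart.

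**Figure D3:**
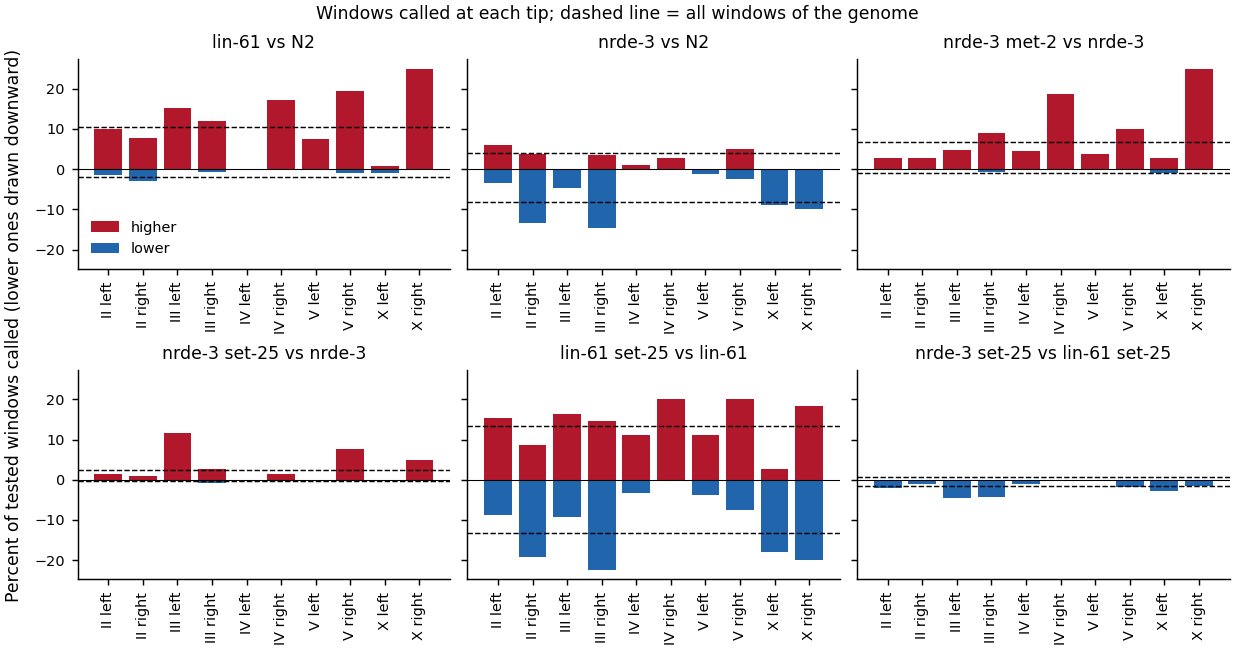
Bars give the percent of tested windows of each tip called higher (upward) or lower (downward) in 6 comparisons, and dashed lines the percent over all windows of the genome. In lin-61 against N2 the bar of X right reaches 25% while IV left has none, and in lin-61 set-25 against lin-61 the lower calls reach 22.4% at III right and none at IV right. Of the 15 X right windows called higher in lin-61 against N2, 1 passed the stricter count.

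In lin-61 embryos the windows that rose lay in part in short stretches of neighbours, and their share differed between tips. The tip windows called higher had a median of 0.490 CPM in N2 and 1.503 CPM in lin-61, so they were low to begin with. Their median log2 fold change was 1.86. By tip, 23 were at V right, 17 at III right, 15 at II left, 15 at X right, 13 at III left, 12 at IV right, 8 at II right, 6 at V left, 1 at X left and none at IV left. At V right this was 19.3% of the tested windows, and at X right 25%, while II right with 7.69%, V left with 7.41% and X left with 0.893% lay below the 10.5% of all windows. By the stricter count X right kept 1, V right 11, II left 12 and III right 10. Over all tested windows 5.72% met it. With only the 2 groups fitted, 203 tip windows were called higher and 34 lower. IV left, where 90 windows were tested, had no call in either direction.

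The largest rises were at right tips. The window from 13730001 at III right, 53.2 kb from the end, had 0.396, 0.548 and 0.242 CPM in N2 and 2.41, 2.15 and 3.33 CPM in lin-61, a log2 fold change of 2.72 ± 0.39 (SE; edgeR adjusted p = 7.97e-05). All 3 lin-61 libraries lay above all 3 N2 libraries. The window from 20857001 at V right had 0.905, 1.33 and 0.556 CPM in N2 and 6.60, 4.53 and 7.25 CPM in lin-61, a log2 fold change of 2.72 ± 0.40 (edgeR adjusted p = 0.000113). The window from 17675501 at X right went from 0.697, 0.320 and 0.242 CPM to 2.70, 2.42 and 3.18 CPM, a log2 fold change of 2.68 ± 0.39. The groups did not overlap at either site. At the left tips the window from 66001 of III rose from 0.754, 1.05 and 0.628 CPM to 5.11, 2.73 and 4.89 CPM, by 2.38 ± 0.43 on the log2 scale. The window from 77001 of II rose from 1.64, 1.21 and 0.869 CPM to 5.94, 3.98 and 6.03 CPM, by 2.09 ± 0.38. At IV right the window from 17475001 rose from 0.924, 1.07 and 0.507 CPM to 4.33, 4.08 and 4.34 CPM, by 2.34 ± 0.35. These 6 windows passed the test whichever library was left out.

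Runs of called windows drew out the stretches behind these values. At V right, 9 of 9 tested windows from 20854001 to 20858500 were called higher in lin-61, and the level summed over this 4.5 kb was 11.8, 13.6 and 7.95 CPM in N2 and 67.5, 48.0 and 76.5 CPM in lin-61. At III right, 10 of 11 windows from 13726501 to 13732000 were called, with 7.43, 7.63 and 3.28 CPM in N2 and 36.7, 24.1 and 36.2 CPM in lin-61. At III left, 9 of 10 windows from 62501 to 67500 were called, with 18.8, 17.7 and 9.13 CPM in N2 and 73.0, 50.8 and 75.8 CPM in lin-61. These 3 stretches lay 51.7 to 65.6 kb from their ends, and lin-61 was above N2 in every library. IV right had 7 of 8 windows from 17444001 to 17448000, with means of 2.82 ± 0.989 CPM in N2 and 10.4 ± 2.15 CPM in lin-61, and X right 7 of 7 tested windows from 17673001 to 17677000, with 1.57 ± 0.576 and 9.14 ± 1.72 CPM. II left had stretches of 3 kb from 13001 and from 74501, and V left a weaker one from 65501 to 69000 with 14.9 ± 2.34 and 29.1 ± 0.686 CPM. The stretches were drawn around calls, so their sums describe the calls and are no further test.

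**Figure D4:**
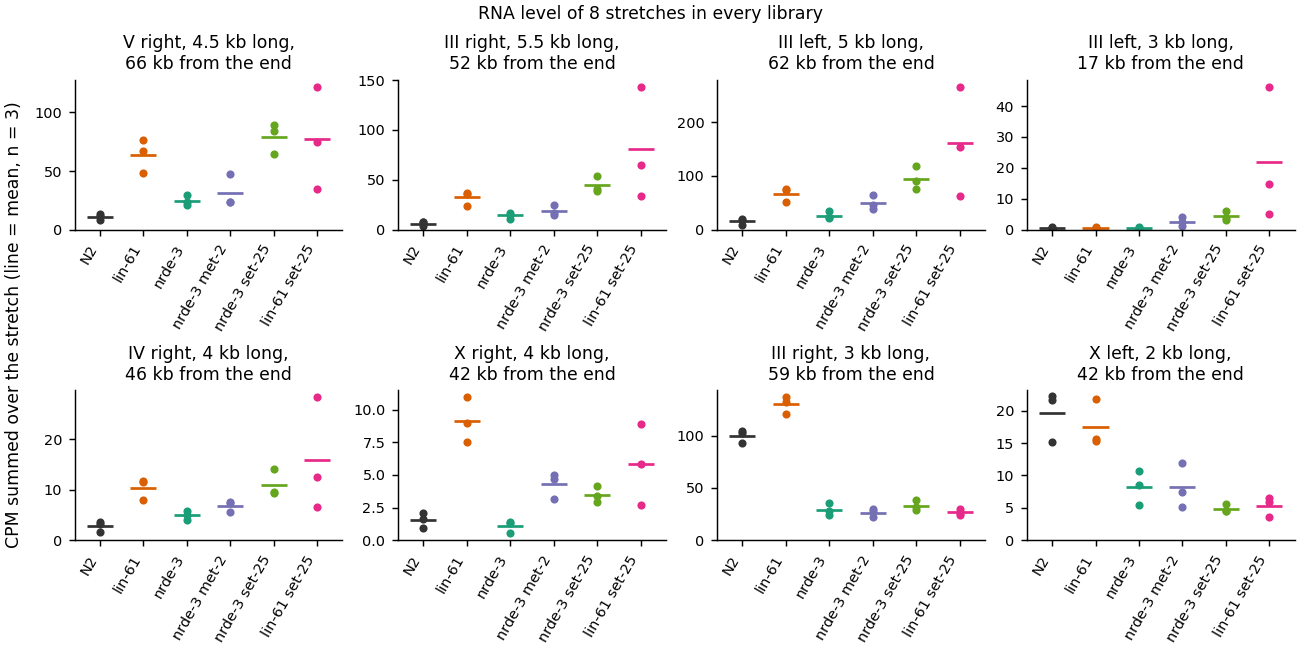
The level summed over each of 8 stretches is shown for every library of 6 genotypes, in CPM, with a line at the mean of 3 libraries. In the first 3 panels lin-61, nrde-3 set-25 and lin-61 set-25 are above N2, and in the last 2 panels all 4 genotypes of prefix 1121 lie below N2 and lin-61.

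Few tip windows fell in lin-61, and by less. At II left the window from 42501, the highest of its tip, went from 73.9, 67.1 and 73.0 CPM in N2 to 44.1, 39.1 and 45.2 CPM in lin-61, a log2 fold change of -0.74 ± 0.18 (edgeR adjusted p = 0.00911). The windows from 13758001 at III right, with -0.82 ± 0.23, and from 15231501 at II right, with -0.81 ± 0.26, also passed, as did those from 49501 at II left and 20840001 at V right with -0.61 and -0.56. Only the window from 42501 passed whichever library was left out. The count of higher windows was 43 without N2 library c and 56 to 73 without N2 library a or b or lin-61 library a or c. That of lower windows was 1 without N2 library a or c or lin-61 library c, 2 without lin-61 library a and 4 without lin-61 library b.

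The sum of a whole tip hid most of this. Tip totals were tested as 10 of 1005 bins of about 100 kb, with log2 fold changes on the scaling of the bins. In lin-61 against N2 no tip was called, where 20.5% of all bins were, and the 10 differences ran from -0.24 at IV right to 0.28 at X right. At an unadjusted p below 0.05, 2 tips were higher and 2 lower, and DESeq2 called none. With only the 2 groups fitted 8 tips were called, in bins of 50 kb 2, and with the factors of the windows 1. The bins and the windows were scaled separately, and a bin difference exceeds the window difference by 0.11 in this comparison, by 0.237 for nrde-3 over N2 and by 0.262 for lin-61 set-25 over lin-61 for that reason alone.

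In nrde-3 against N2, higher windows were few and modest, and falls were more frequent. By tip, 9 of the 27 higher windows were at II left, 6 at V right, 5 at III right and 4 at II right. At V right the window from 20856501 had 1.62, 1.97 and 0.918 CPM in N2 and 3.44, 5.996 and 4.42 CPM in nrde-3, which is a log2 fold change of 1.62 ± 0.38 (edgeR adjusted p = 0.00544). It lies inside the 4.5 kb stretch that rose in lin-61, where nrde-3 had 23.5, 29.3 and 21.2 CPM in sum, all above N2 and all below lin-61. At II left the 3 kb stretch from 13001 had means of 3.76 ± 1.88 CPM in N2, 9.71 ± 2.12 in nrde-3 and 11 ± 1.95 in lin-61, with 4 windows called in nrde-3 and 5 in lin-61. The 2 comparisons share the N2 libraries. Higher calls numbered 6 to 14 without N2 library a, b or c or nrde-3 library a or b, and lower calls 40 without N2 library c.

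The windows that fell in nrde-3 were well expressed in N2, where their median was 9.503 CPM against 3.80 CPM in nrde-3. III right held 21 of the 64 (14.7% of its tested windows), II right 14 (13.5%), X left 10 (8.93%) and X right 6 (10%). Over all tested windows the share was 8.25%. At X right the window from 17623501 had 3.20, 4.25 and 5.12 CPM in N2 and 0.861, 1.06 and 0.395 CPM in nrde-3, or -2.42 ± 0.30 on the log2 scale (edgeR adjusted p = 8.52e-06). At III right the window from 13724001 had 5.45, 4.87 and 5.72 CPM in N2 and 0.861, 1.42 and 0.750 CPM in nrde-3, -2.39 ± 0.35 on the log2 scale. At X left the window from 96001 had 14.2, 9.74 and 12.2 CPM and then 2.37, 2.34 and 3.43 CPM, -2.15 ± 0.30. Groups did not overlap at any of them. Near the end of II right the windows from 15275501 and 15277501, 3.345 and 1.345 kb from the last base, fell by 1.84 ± 0.27 and 1.81 ± 0.28.

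These falls went with the title prefix as much as with nrde-3. The window from 13724001 had means of 5.35 CPM in N2 and 8.55 in lin-61, both of prefix 875, against 1.01 for nrde-3, 1.02 for nrde-3 met-2, 1.41 for nrde-3 set-25 and 0.541 for lin-61 set-25. At III right the 3 kb stretch from 13721501 to 13724500 had 102, 92.7 and 105 CPM in N2, 121, 132 and 138 CPM in lin-61, 24.2, 35.7 and 28.0 CPM in nrde-3 and 30.1, 24.5 and 26.5 CPM in lin-61 set-25. The lin-61 set-25 embryos carry a functional nrde-3 by their label, and their level was that of nrde-3. A prefix term was also taken off as a contrast of the same fit, with mutations taken as additive. The nrde-3 single mutant cancels out of this contrast, which is lin-61 minus N2 plus nrde-3 set-25 minus lin-61 set-25. In it 0 of the tip windows were called lower and 12 higher. The windows from 17623501, 13724001, 96001, 15275501, 15277501 and 42501 of X had the opposite sign there. As no nrde-3 single-mutant library enters it, the contrast cannot decide the direction of the nrde-3 falls. That direction cannot be told apart from prefix.

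**Figure D5:**
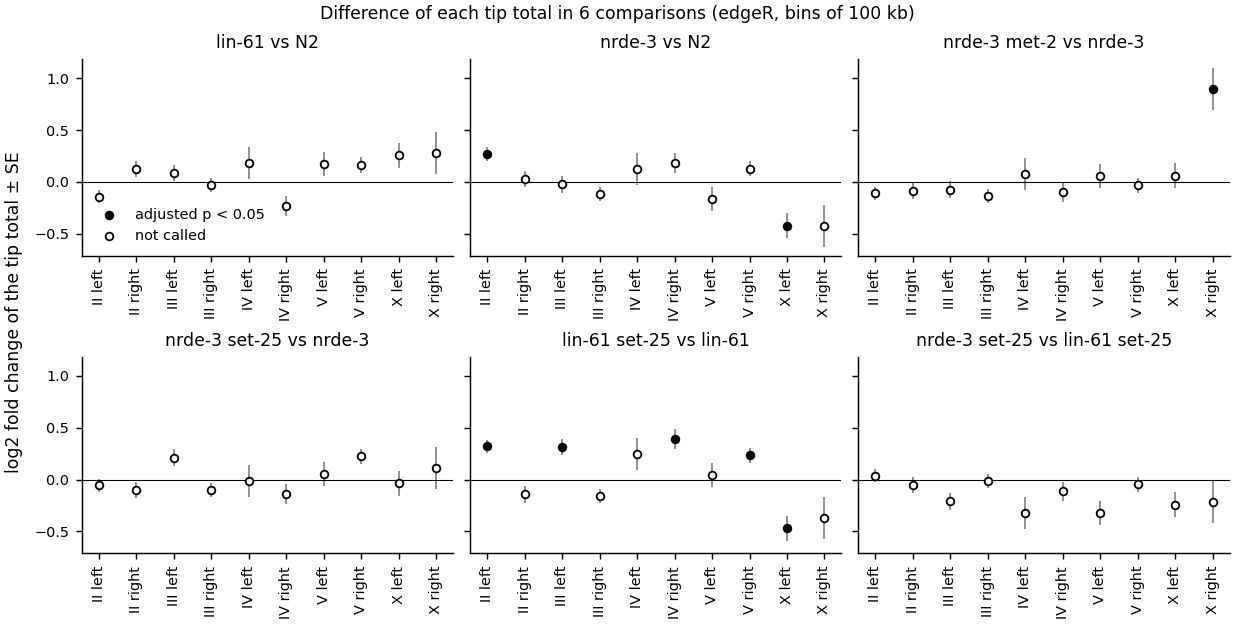
Points give the log2 fold change of each tip total with its SE in 6 comparisons, from edgeR on bins of 100 kb, filled where the adjusted p is below 0.05. X right in nrde-3 met-2 over nrde-3 is the highest point at 0.89, and the other filled points, 7 in all, are in the 2 comparisons whose groups differ in title prefix.

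Of the tip totals, II left was higher in nrde-3 than in N2 and X left lower. II left had 1131, 1092 and 1076 CPM in N2 and 1483, 1254 and 1238 CPM in nrde-3, up by 0.27 ± 0.06 on the log2 scale (edgeR adjusted p = 0.00327). X left had 316, 284 and 309 CPM in N2 and 198, 242 and 237 CPM in nrde-3, -0.42 ± 0.12 (edgeR adjusted p = 0.0101). Over all bins 34.5% were called in this comparison, more than the share at the tips. Scaled with the factors of the windows, II left differed by 0.04 and was no longer called. In bins of 50 kb neither tip was called. With the prefix term taken off, a contrast without the nrde-3 single-mutant libraries, the values were -0.10 for II left and 0.01 for X left.

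Loss of met-2 in the nrde-3 background went with more RNA at places that were almost silent in nrde-3. Over the 74 higher windows the median level was 0.1004 CPM without and 0.645 CPM with the met-2 mutation. N2, lin-61 and both set-25 double mutants had medians of 0.129 to 0.324 CPM there. Some of these windows may thus have passed the filter only through nrde-3 met-2, and the low level in nrde-3 is in part set by this. X right had 15, 25% of its tested windows, and IV right 13, 18.6%. Another 13 were at III right, 9.09%, and 12 at V right, 10.1%, against 6.67% of all tested windows. The shares per tip depend on the same filter. By the stricter count 1 window was left at X right and 1 at IV right. The largest stretch was at X right from 17662501 to 17665000, where 5 of 5 windows were called. Its sum was 0.129, 0.0355 and 0.0790 CPM in nrde-3, from 6 reads in all, and 8.24, 2.79 and 14.1 CPM in nrde-3 met-2, from 713 reads. N2 had 3 reads there and lin-61 had 21, while nrde-3 set-25 reached 2.11, 1.28 and 1.18 CPM and lin-61 set-25 1.95, 1.16 and 4.41 CPM.

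Of the higher windows that passed the stricter count, those at X right and IV right rose by less than 2.64, the median log2 fold change of the 74. The window from 17675501 at X right had 0.129, 0.284 and 0.316 CPM in nrde-3 and 0.835, 0.608 and 1.05 CPM in nrde-3 met-2, a log2 fold change of 1.74 ± 0.48 (edgeR adjusted p = 0.0271). The window from 17404001 at IV right had 0.732, 0.710 and 0.711 CPM and then 1.86, 1.43 and 1.49 CPM, 1.15 ± 0.29. Both were called in the fit of all libraries and lost in the fit of these 2 genotypes alone, with adjusted p of 0.0611 and 0.0935 by edgeR. The first was also lost without nrde-3 library a or nrde-3 met-2 library a or c, at 1.35 to 1.71, and the second without nrde-3 met-2 library a, at 0.99. At III left the window from 18501 had 3 reads in nrde-3 and 51 in nrde-3 met-2, a ratio of 15.6 with an exact binomial 95% interval of 5.03 to 77.9 for counting error only. Its log2 fold change was 3.83 ± 1.02, and its mean level was highest in lin-61 set-25, outside this pair. The call was lost without nrde-3 library a or b or nrde-3 met-2 library c, at 3.24, 3.16 and 3.59. A fall was called at III right in the window from 13764501, from 36.8, 33.6 and 31.7 CPM to 17.5, 19.03 and 25.8 CPM, -0.71 ± 0.18, and in the window from 89001 at X left, -1.07 ± 0.31, which was not called without nrde-3 library c or nrde-3 met-2 library a, at -1.04 and -0.85. These 2 falls became 6 to 40 without any of the nrde-3 libraries or without nrde-3 met-2 library b or c.

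The nrde-3 met-2 libraries also carried reads in windows that were otherwise empty. Over 32328 windows with at most 2 reads in the 6 libraries of N2 and lin-61, the mean level was 0.156, 0.0985 and 0.297 CPM per window in nrde-3 met-2 libraries a, b and c, and 0.00489 to 0.00583 in nrde-3. Of these windows 248 were at the tips, where the mean was 0.143, 0.1001 and 0.349 CPM. Over the 200 windows of a tip such a background comes to 19.7 to 59.4 CPM in nrde-3 met-2 and to 0.978 to 1.17 CPM in nrde-3. With it taken off each library, 23 tip windows were called higher in place of 74, and with only the 2 groups fitted 33. The count was 46 without nrde-3 met-2 library c and 171 without library b. The part of this background in the rises at the silent tips was not tested further.

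X right was the 1 tip whose total rose in nrde-3 met-2, where 16.9% of bins were called. It had 50.05, 76.9 and 70.5 CPM in nrde-3 and 104, 89.7 and 173 CPM in nrde-3 met-2, a log2 fold change of 0.89 ± 0.20 (edgeR adjusted p = 0.00541). The groups did not overlap, and library c of nrde-3 met-2 was the highest. On the scaling of the windows, the tip without the stretch from 17662501 still had 51.9, 72.8 and 70.9 CPM in nrde-3 and 94.0, 90.2 and 144 CPM in nrde-3 met-2. With the background of silent windows taken off, the difference was 0.51 and was not called (edgeR adjusted p = 0.167). In the fit of the 2 genotypes alone it was 0.93 with an adjusted p of 0.136 by edgeR.

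Loss of set-25 beside nrde-3 went with more RNA at a few of the stretches that rose in lin-61. Of the 30 higher windows 10 were at III left, 9 at V right, 4 at III right, 3 at X right and 2 at II left. At V right the window from 20854501 had 1.85, 1.06 and 1.5003 CPM in nrde-3 and 6.15, 4.60 and 7.15 CPM in nrde-3 set-25, a log2 fold change of 2.02 ± 0.39 (edgeR adjusted p = 0.00571), and passed whichever library was left out. Over its 4.5 kb stretch the sum was 23.5, 29.3 and 21.2 CPM in nrde-3 and 89.1, 64.3 and 84.2 CPM in nrde-3 set-25, where lin-61 had 48.0 to 76.5 CPM and nrde-3 met-2 23.2 to 47.7 CPM. At III left the 5 kb stretch from 62501 had 21.5, 33.9 and 22.9 CPM in nrde-3 and 119, 75.7 and 89.6 CPM in nrde-3 set-25, with 7 of 10 windows called. At III right the window from 13727001 had 4.65, 5.96 and 4.90 CPM and then 20.9, 14.1 and 15.5 CPM, 1.70 ± 0.43 (edgeR adjusted p = 0.0327). This call was lost without library a, b or c of nrde-3 or library a or c of nrde-3 set-25, at differences of 1.52 to 1.82.

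Another rise in this pair was near the end of III left. The window from 19001 had 0, 0.0710 and 0.0395 CPM in nrde-3, 3 reads in all, and 1.86, 0.998 and 1.37 CPM in nrde-3 set-25, 111 reads. The ratio of pooled reads was 36.2, with an exact binomial 95% interval of 12.1 to 178. A single window fell, that from 13758501 at III right, which had 2.15, 2.59 and 3.67 CPM in nrde-3 and 1.05, 1.497 and 1.41 CPM in nrde-3 set-25, -1.09 ± 0.27 (edgeR adjusted p = 0.0323). The number of higher windows was 5 to 18 when any library of the pair was left out, and the fall was not called without nrde-3 library b or c or any of the nrde-3 set-25 libraries. No tip total was called, where 0.498% of bins were, 2 were higher at an unadjusted p below 0.05 and DESeq2 called none.

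Of the windows higher in nrde-3 set-25 than in nrde-3, 22 of 30 were also higher in lin-61 than in N2, which is 73.3% of the first list and 20% of the second. Over the whole genome the shares were 74.0% and 17.4%, so the tips followed the genome in this. These comparisons share no library. For nrde-3 met-2 over nrde-3 the overlap with lin-61 was 13 windows, 17.6% of its list and 11.8% of that of lin-61. Over the whole genome these shares were 16.6% and 10.6%.

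In lin-61 set-25 against lin-61, 9 of the 10 tips had calls in both directions, in a pair that differs in prefix. Over the 138 higher windows the median level was 0.458 CPM in lin-61 against 1.68 CPM in the double mutant. They were spread over the tips, with 24 at V right (20.2% of its tested windows), 23 at II left (15.4%) and 21 at III right (14.7%). There were 14 at III left (16.3%), 14 at IV right (20%), 11 at X right (18.3%) and 3 at X left (2.68%). IV left had 10 (11.1%), V left 9 (11.1%) and II right 9 (8.65%). Over all tested windows the share was 13.4%. The largest rise was at III left in the window from 18501, with 0.137, 0.0205 and 0.0900 CPM in lin-61 and 4.28, 2.02 and 16.3 CPM in lin-61 set-25, a log2 fold change of 6.43 ± 0.69 (edgeR adjusted p = 3.64e-07). All 6 windows from 17001 to 20000 were called, and their sum was 0.979, 0.410 and 0.630 CPM in lin-61 and 14.9, 5.01 and 46.2 CPM in lin-61 set-25. N2 and nrde-3 stayed at 0.548 to 0.775 CPM there, nrde-3 met-2 had 1.18, 2.47 and 3.92 CPM and nrde-3 set-25 5.98, 2.96 and 3.82 CPM. This 3 kb was thus low in the 3 genotypes with wild-type met-2 and set-25 and higher in the 3 with a mutation in either.

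Library c of lin-61 set-25 was the highest of its group at most rising stretches. At III left from 62501 the 3 libraries had 153, 63.0 and 266 CPM, against 73.0, 50.8 and 75.8 in lin-61, so the groups overlapped. The window from 62501 within it had 0.255, 0.308 and 0.396 CPM in lin-61 and 2.30, 0.897 and 5.23 CPM in lin-61 set-25, a log2 fold change of 3.12 ± 0.50. At III right from 13726501 they had 64.7, 34.2 and 143 CPM against 36.7, 24.1 and 36.2 CPM. The window from 13729501 in that stretch was called at 1.49 ± 0.41, but the difference was 0.71 and not called without library c. Without that library 62 tip windows were called higher in place of 138, and without lin-61 library b 76. The windows from 17403001 at IV right, 1.85 ± 0.31, from 53501 at II left, 1.55 ± 0.28, and from 20897501 at V right, 1.49 ± 0.32, passed whichever library was left out.

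A stretch at III right from 13744001 to 13747000 was highest in lin-61 set-25. It had 0.754, 0.823 and 0.314 CPM in N2, 1.23, 1.56 and 1.46 CPM in lin-61, 1.34, 1.43 and 1.41 CPM for nrde-3 set-25, 2.32, 1.82 and 3.32 CPM in nrde-3 met-2 and 7.30, 7.81 and 20.3 CPM in lin-61 set-25. All 6 windows were called higher against lin-61, and all 6 were called lower in nrde-3 set-25 against lin-61 set-25. The second of these comparisons is within prefix 1121 and shares the lin-61 set-25 libraries with the first. At IV right, 5 of 5 windows from 17402501 and 4 of 4 from 17487001 were called higher in lin-61 set-25. The latter lies 4.793 kb from the end, with means of 0.390 ± 0.212 CPM in lin-61, 3.96 ± 2.86 in lin-61 set-25 and 1.33 ± 0.328 in nrde-3 set-25.

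The 120 lower windows had a median of 6.96 CPM in lin-61 against 3.16 CPM in the double mutant. III right held 32 (22.4% of its tested windows), II right 20 (19.2%), X left 20 (17.9%), II left 13 (8.72%) and X right 12 (20%). Over all tested windows the share was 13.3%. The window from 15273501 at II right had 26.2, 30.4 and 29.4 CPM in lin-61 and 5.66, 4.15 and 5.30 CPM in lin-61 set-25, a log2 fold change of -2.51 ± 0.21 (edgeR adjusted p = 1.25e-08). The windows from 13724001 at III right, -3.96 ± 0.38, from 96001 at X left, -3.04 ± 0.32, and from 17623501 at X right, -2.95 ± 0.31, had also fallen in nrde-3 against N2. Altogether 54 windows fell in both of these comparisons, 84.4% of the nrde-3 list and 45.0% of the lin-61 set-25 list. Over the genome the shares were 80.5% and 49.8%. The comparisons share no library but both set prefix 1121 against 875.

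Among tip totals, 4 were higher and 1 lower in lin-61 set-25 than in lin-61, where 44.3% of all bins were called. IV right had 450, 447 and 416 CPM in lin-61 and 572, 675 and 472 CPM in lin-61 set-25, 0.39 ± 0.10 (edgeR adjusted p = 0.00343). II left differed by 0.32 ± 0.06, III left by 0.31 ± 0.08 and V right by 0.23 ± 0.07. X left had 352, 343 and 390 CPM in lin-61 and 292, 228 and 262 CPM in lin-61 set-25, -0.47 ± 0.12 (edgeR adjusted p = 0.00428), and no lin-61 set-25 library reached the lowest of lin-61. With the factors of the windows the 4 rises became 0.13, 0.06, 0.05 and -0.03 and none was called, while X left remained lower. The set-25 differences in the nrde-3 and lin-61 backgrounds differed from each other at 2 of the 10 tips, II left and IV right, where 30.9% of all bins were called by the interaction in edgeR. The call for V right was also lost without lin-61 library b or c, at 0.17 and 0.21, or lin-61 set-25 library c, at 0.14.

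Compared with lin-61 set-25, nrde-3 set-25 had less RNA at some of the same quiet places. Of the 21 lower windows 6 were at III right, 4 at III left, 3 each at II left and X left, 2 at V right and 1 each at II right, IV left and X right. Their median was 0.394 CPM in the former and 2.08 CPM in the latter. With only the 2 groups fitted, 1 tip window was called lower in place of 21. The window from 26501 at X left had 1.48, 1.64 and 1.59 CPM in nrde-3 set-25 and 3.62, 4.18 and 3.78 CPM in lin-61 set-25, a log2 fold change of -1.30 ± 0.24 (edgeR adjusted p = 0.00441), and passed whichever library was left out. The window from 18501 at III left, -2.77 ± 0.55, was not called without nrde-3 set-25 library b or lin-61 set-25 library c, at -2.496 and -1.52. The window from 65501 there had 0.563, 0.428 and 0.501 CPM against 2.14, 0.747 and 3.98 CPM, -2.20 ± 0.46, and was not called without library b or c of nrde-3 set-25 or library c of lin-61 set-25. The count was 6 without nrde-3 set-25 library c or lin-61 set-25 library c, 8 and 13 without nrde-3 set-25 libraries b and a, and 54 without lin-61 set-25 library b. No tip total was called, where 8.86% of bins were, 2 were lower at an unadjusted p below 0.05, DESeq2 called none and 2 were called without lin-61 set-25 library b.

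Read tip by tip, the ends differed in some traits and shared others. IV left had a total of 176 to 237 CPM in the genotype means and was the only tip without a called window in lin-61 over N2. Like V left and X left it had none in nrde-3 set-25 over nrde-3. Like II right, III right and V left it had no called total. X left had 10 and 20 lower windows in the comparisons across prefixes, 8.93% and 17.9% of its tested windows against 8.25% and 13.3% of all. II right, III right and X right had larger shares in both comparisons. The group means of X left were 303 and 362 CPM in N2 and lin-61 against 220 to 261 CPM in the other 4 genotypes. Its highest window, from 59001, had 76.5 and 91.3 CPM in N2 and lin-61 and 25.3, 23.7 and 28.2 CPM in nrde-3 and its double mutants with met-2 and set-25, and 33.3 CPM in lin-61 set-25. V right and III left joined high N2 windows beyond 60 kb from the end with stretches that rose in lin-61, nrde-3 set-25 and, at III left, lin-61 set-25. III right held a rising stretch from 13726501 that begins 2 kb after the end of a falling one. X right, the lowest tip, had the largest share of called windows in lin-61 and in nrde-3 met-2, from a base of 60 tested windows. By the stricter count only 1 of its 15 called higher windows was left in each of these comparisons.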

How the data were processed

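The authors deposited raw read counts per 500 bp window, without strand or gene names. The build is ce10, per the submitters' processing notes. The aligner, the counter and the handling of reads with several matches are not given in the sources used here. Per the labels' protocols, RNA was treated with DNase, depleted of ribosomal RNA from 5 µg and made into libraries with a TruSeq kit. Columns were matched to genotypes by name. No label ties their letters a, b and c to the replicate numbers in the titles, and 6 further columns of per-sample values, matched to no sample, were not used.

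Depth was 22275571 to 67553226 reads per library. The test was edgeR 4.0.16 under R 4.3.3 on the counts of 21 libraries (TMM, filterByExpr with a minimum count of 10, glmQLFit, glmQLFTest), with 1 coefficient per genotype and 14 residual degrees of freedom. Windows (97353 tested) and bins of 100 kb (1005, each tip being 1) were fitted and scaled separately, with Benjamini-Hochberg adjustment over all windows or bins of a comparison. CPM values use these TMM sizes, of the windows for windows and stretches and of the bins for tip totals. Replicate libraries of a genotype differed beyond counting noise, so none was merged. Intervals cover counting error only.

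Windows were named by rule: in each comparison the 6 highest and 6 lowest log2 fold changes among called tip windows whose average log2 CPM was 0 or more and whose groups did not overlap, 1 per run, and the highest N2 window of each tip. Stretches joined runs of at least 4 called windows. The tips, the rule and the comparisons were chosen with earlier results of these data known. Alternatives were RLE scaling, no filter, DESeq2 1.42.0, only the 2 groups compared and no lin-61 met-2 libraries. Others were removal of the level of silent windows, removal of a prefix term, bins of 50 kb and each library left out. The prefix term was the set-25 difference in lin-61 minus that in nrde-3, from the same fit. It counts any difference of the set-25 effect between backgrounds as prefix. Taken off nrde-3 over N2, it leaves lin-61 minus N2 plus nrde-3 set-25 minus lin-61 set-25, without the nrde-3 single mutant. Bins scaled with the window factors were added after the data were seen.

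On counts simulated for the pair of lin-61 and N2, the test recovered 11 of 100 windows shifted by 1 and 76 of 100 shifted by 2 on the log2 scale among 91573 windows, with 4 false calls of 91. Among 1005 bins, 88 of 100 changed by 0.5 and 100 of 100 changed by 1 were recovered, with 7 false calls of 195. Only the shifted windows differed in the simulation, whereas 10207 windows were called higher in the data. The adjusted threshold for windows was thus harder to pass, and their recovery need not be that of the reported test. Figures used Python 3.11.15 with pandas 2.3.3 and matplotlib 3.10.9.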

Additional observations from a re-analysis of the deposited data

Results flagged for a closer look

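The effect of set-25 loss differed between the nrde-3 and lin-61 backgrounds at 2 tips, by the interaction of the bins in edgeR. The difference, nrde-3 background minus lin-61 background, was -0.373 on the log2 scale at II left (edgeR adjusted p = 0.00452) and -0.531 at IV right (edgeR adjusted p = 0.00709), where 30.9% of all bins were called. At II left nrde-3 set-25 differed from nrde-3 by -0.05 and lin-61 set-25 from lin-61 by 0.32, and at IV right by -0.14 and 0.39. lin-61 and lin-61 set-25 differ in title prefix, so the interaction cannot be told apart from it. With the window factors the values were -0.17 and -0.33 and neither was called.

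The libraries labelled lin-61 met-2, which no comparison of the report uses, had higher totals than N2 at 2 tips, where 37.4% of all bins were called in either direction. The difference was 0.169 at II left (edgeR adjusted p = 0.0435) and 0.284 at V right (edgeR adjusted p = 0.00597). X left was lower, at -0.433 (edgeR adjusted p = 0.00867). These libraries went against their label and differ from N2 in prefix.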

How the results depend on the processing

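No paired analysis was possible because no label ties the letters of the columns to the replicate numbers in the titles. Counts were taken as kept within a fixed factor of the main count, so kept counts need not be equal. By this rule RLE scaling moved none of the 20 counts. The 10 called tips and 54 named windows kept their direction and call under it. The causes of the changes below were not tested. For lin-61 over N2 the 110 higher windows became 203 with only the 2 groups. The 8 lower ones became 1 with no filter, 4 without the lin-61 met-2 libraries, 5 with silent-window levels taken off, 34 with only the 2 groups and 19 with DESeq2. The 0 called tips became 2 in bins of 50 kb, 8 with only the 2 groups and 1 with window factors. For nrde-3 over N2 the 27 higher windows became 43 with DESeq2 and 12 with the prefix term taken off. No nrde-3 single-mutant library enters the contrast with that term off. The 64 lower ones became 0 with that term off. The 2 called tips became 0 in bins of 50 kb, 0 with the prefix term off and 6 with window factors. With the prefix term off, these values had the opposite sign to nrde-3 over N2. At II right they were -0.21 for 15234001 and 1.08 and 1.05 for 15275501 and 15277501. At X right 17623501 had 0.87, at III right 13724001 had 2.05, and at X left 96001 had 0.53 and 42501 had 0.14. For tip totals they were -0.10 at II left and 0.0127 at X left. For nrde-3 met-2 over nrde-3 the 74 higher windows became 358 with no filter, 23 with silent-window levels taken off and 33 with only the 2 groups. The 2 lower ones became 114, 10 and 0 under these, 1 without the lin-61 met-2 libraries and 11 with DESeq2, and the 1 called tip became 0 with silent-window levels taken off and 0 with only the 2 groups. For nrde-3 set-25 over lin-61 set-25 the 0 higher windows became 1 with no filter, 1 without the lin-61 met-2 libraries and 3 with DESeq2, the 21 lower ones became 1 with only the 2 groups, and the 0 called tips became 1 in bins of 50 kb. The 2 tips with an interaction became 1 in bins of 50 kb. V right in lin-61 set-25 over lin-61 turned to -0.0309 with window factors. The ratio of III right to X right was 24.89 without the highest windows. With 1 library left out at a time, higher and lower counts ran from 43 to 86 and 1 to 6 for lin-61 over N2, 6 to 22 and 40 to 58 for nrde-3 over N2, 46 to 171 and 2 to 40 for nrde-3 met-2, 5 to 18 and 0 to 1 for nrde-3 set-25, 62 to 166 and 88 to 115 for lin-61 set-25 over lin-61, and 0 to 0 and 6 to 54 for nrde-3 set-25 over lin-61 set-25, where 0 to 2 tips were called. Of 324 such fits of named windows, 97 lost the call and none changed direction. Windows of a few reads set the limit of depth, as 986 of 2000 tip windows were not tested.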
